A study of Mus musculus with 6 samples.

Results

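The tissue kallikreins Klk5 to Klk14 form an unbroken run of 10 genes on mouse chromosome 7, from base 43690418 to base 43851181 of GRCm38 (160764 bp), all transcribed from the + strand. In order of position they are Klk14, Klk13, Klk12, Klk11, Klk10, Klk9, Klk8, Klk7, Klk6 and Klk5. These 10 rows, of the 54838 gene rows in the counts table, were described in sciatic nerves of 3 cKO and 3 WT libraries. The cluster was chosen because Klk8, Klk9 and Klk10 were much higher in cKO nerves, so the difference of the members between the genotypes is a description and carries no test. All mice were of strain C57 Bl at postnatal day 3. The cKO mice had the genotype CnpCre Actl6a fl/fl, in which a Cre recombinase driven by Cnp, a gene active in myelinating glia, acts on a floxed Actl6a, and the WT mice are labelled only as WT. The product of Actl6a, BAF53a, is an actin-related protein of chromatin remodelling complexes, and the comparison asks which nerve transcripts differ when it is targeted in this lineage. The labels leave unstated whether the WT mice carried Cre or floxed alleles and how many animals stand behind a library. The p-values below therefore measure the spread between these libraries, which may be technical.

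Tissue kallikreins are secreted serine proteases with trypsin-like or chymotrypsin-like specificity. They are made as inactive proenzymes, and several can cut and activate other members, so they are often described as acting in cascades. In skin, KLK5 and KLK7 cut the junction proteins that hold the outer keratinocytes together. In the nervous system, KLK8 (neuropsin) is known from mouse hippocampus, where it cuts synaptic adhesion proteins, and KLK6 (neurosin) from oligodendrocytes, where it can cut myelin proteins. Kunitz, Kazal and serpin-type inhibitors limit their activity, and protease-activated receptors are among their targets at the cell surface.

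The members with the highest levels in these nerves, Klk10, Klk9 and Klk8, are neighbours within 22792 bp, with Klk9 ending 819 bp before the start of Klk8, so the 250 bases upstream of their transcription starts are shown for comparison. The sequences are from RefSeq on GRCm38.p6, + strand, written 5′ to 3′, at chr7:43780804-43781053 for Klk10, chr7:43791641-43791890 for Klk9 and chr7:43797327-43797576 for Klk8. Capitals mark a match to any of 6 motifs searched on both strands.
Klk10: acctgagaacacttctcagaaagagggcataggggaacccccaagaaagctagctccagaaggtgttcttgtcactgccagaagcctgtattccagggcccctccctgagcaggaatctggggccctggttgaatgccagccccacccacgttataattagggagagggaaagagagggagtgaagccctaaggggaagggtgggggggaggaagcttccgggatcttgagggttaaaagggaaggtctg
Klk9: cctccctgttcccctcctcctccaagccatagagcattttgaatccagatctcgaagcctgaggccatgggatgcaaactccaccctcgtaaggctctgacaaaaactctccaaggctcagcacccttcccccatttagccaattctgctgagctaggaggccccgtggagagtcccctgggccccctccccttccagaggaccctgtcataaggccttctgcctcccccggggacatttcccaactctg
Klk8: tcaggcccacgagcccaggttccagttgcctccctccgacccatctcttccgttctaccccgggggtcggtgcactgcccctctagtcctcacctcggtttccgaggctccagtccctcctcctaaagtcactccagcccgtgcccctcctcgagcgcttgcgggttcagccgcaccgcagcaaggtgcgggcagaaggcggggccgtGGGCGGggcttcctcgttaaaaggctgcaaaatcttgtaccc
The window of Klk10 ends 19 bases inside the gene as the counts table places it.
The Klk8 window had a GC content of 65.2%, against 58.4% for Klk9 and 56.0% for Klk10. That of Klk8 was above 83% of 32851 mouse windows of the same length, whose median was 52.4%.
The GC box GGGCGG, marked in the Klk8 window at 42 to 37 bases before the start, was also found upstream of Klk7 and Klk6 and was present in 32.7% of all windows. The TATA box TATAAA (12.4% of all windows), the AP-1 motif TGANTCA (6.75%) and the EGR motif GCGNGGGCG (4.70%) had 0 matches upstream of any of the 10 members. The TEAD motif GGAATG (12.6%) was found for Klk12 and Klk6. A loose form of the SOX motif, ACAANG with any base at N (36.3%), was found for Klk12, Klk11, Klk7 and Klk6. All 10 members had a RefSeq entry, with 12 windows between them. Of the 3 printed windows, those of Klk10 and Klk9 held 0 matches to the 6 motifs and that of Klk8 held the GC box alone. The search describes these letters and says nothing of binding.

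Libraries held 31435102, 31404107 and 32674317 counted fragments in cKO and 33084003, 34681637 and 36760296 in WT. The Actl6a transcript in whole nerve was 42.4, 47.6 and 41.5 CPM (counts relative to the TMM-scaled size of the library) in cKO and 48.6, 53.3 and 46.2 CPM in WT. These ranges overlapped and no difference was called (log2 fold change -0.17, edgeR adjusted p = 0.243). The count covers all exons and many cells outside the Cre lineage, so it is a weak check of the labels. Schwann lineage markers, which define the labelled tissue, were present in every library, with a summed level of 2659 to 4753 CPM in cKO and 21537 to 25080 CPM in WT. Of 8 such markers, 6 fell in cKO and 0 rose. For this and the marker lists below, the shares over all 18775 genes tested were 8.55% called higher and 10.3% called lower. Library cKO replicate 2 stands apart: 12 skeletal muscle markers took 6.08% of its counts, against 0.487% and 0.574% in cKO replicates 1 and 3, and 0.371% to 0.525% in WT. Erythroid markers (4 of 7 higher) summed to 6745 to 21868 CPM in cKO and 2725 to 3940 CPM in WT. Macrophage markers (4 of 6 higher) summed to 544 to 671 CPM in cKO and 341 to 385 CPM in WT, and mast cell markers (4 of 5 higher) to 292 to 375 CPM in cKO and 182 to 224 CPM in WT. Neuron markers (2 of 8 higher) summed to 52.8 to 115.4 CPM in cKO and 44.4 to 49.3 CPM in WT, and 0 of the 12 muscle markers were called. Fibroblast markers (1 of 6 higher) summed to 17177 to 21377 CPM in cKO and 18453 to 19177 CPM in WT. Endothelial markers (1 of 5 higher) summed to 522 to 616 CPM in cKO and 428 to 455 CPM in WT, and perineurial markers (2 of 5 higher, 1 lower) to 219 to 433 CPM in cKO and 322 to 345 CPM in WT. No marker of these lists was at 0 in all 6 libraries. Among cKO libraries, cKO replicate 2 had the lowest sum of Schwann lineage, neuron, fibroblast, perineurial and mast cell markers. It was not the lowest for erythroid, macrophage, endothelial or muscle markers. In bulk nerve, fewer cells of a type and less RNA per cell cannot be told apart, and the part of these markers in the kallikrein values was not tested.

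Klk8, Klk9 and Klk10 were all far higher in cKO nerves, by 11.7-fold to 19.8-fold, and they were also the members with the highest mean levels in cKO nerves. Klk8, the neuropsin gene (ENSMUSG00000064023, bases 43797577 to 43803826), had 32.5, 16.0 and 29.7 CPM in cKO nerves, against 1.77, 2.94 and 1.97 CPM in WT nerves. The groups did not overlap, and the lowest cKO library was cKO replicate 2. Klk8 averaged 26.1 ± 8.81 CPM in cKO and 2.23 ± 0.624 CPM in WT (SD, n = 3 each), a log2 fold change of 3.55 (95% interval 2.73 to 4.37, a description), or 11.7-fold.

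Klk10 (ENSMUSG00000030693, bases 43781035 to 43785410) encodes a kallikrein studied mostly in human epithelia and their tumours. It had 22.6, 9.33 and 15.5 CPM in cKO nerves and 1.14, 1.12 and 0.629 CPM in WT nerves. The groups were again apart, and cKO replicate 2 was again the lowest cKO library. The means were 15.8 ± 6.63 CPM in cKO and 0.966 ± 0.291 CPM in WT (SD, n = 3 each), with a log2 fold change of 4.03 (95% interval 3.05 to 5.01).

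Klk9 (ENSMUSG00000047884, bases 43791891 to 43796757), which lies between them, was the lowest of the trio. It had 121, 39 and 67 counts in cKO libraries, against 2, 6 and 4 counts in WT libraries. These are 3.68, 1.40 and 1.91 CPM in cKO and 0.0602, 0.173 and 0.109 CPM in WT. Every cKO library was above every WT library, but the WT values rest on 12 counts in all. The means were 2.33 ± 1.19 CPM in cKO and 0.114 ± 0.0565 CPM in WT (SD, n = 3 each), with a log2 fold change of 4.30 (95% interval 3.04 to 5.56).

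**Figure D1:**
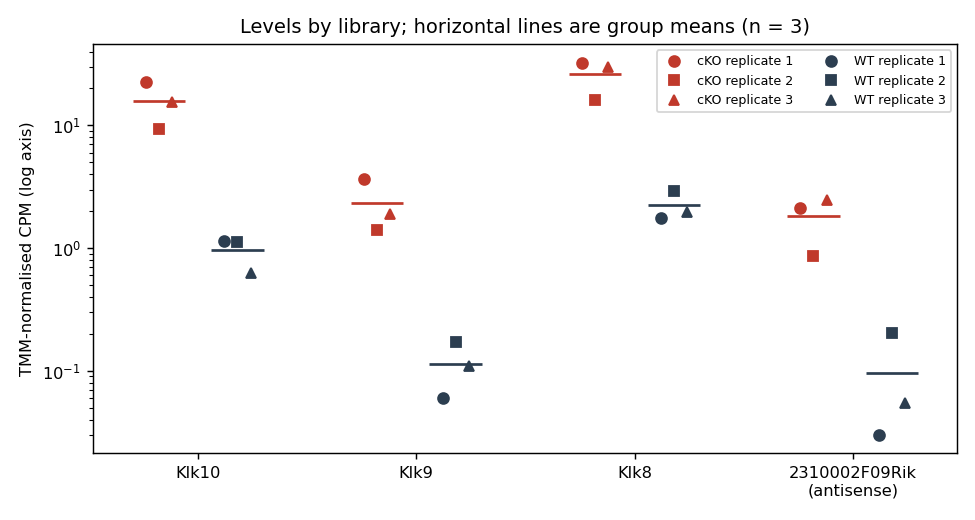
TMM-normalised CPM on a log axis of Klk10, Klk9, Klk8 and the antisense gene 2310002F09Rik in each of 3 cKO (red, left) and 3 WT (dark, right) libraries, with horizontal lines at the group means. For each gene all cKO libraries lie above all WT libraries, and cKO replicate 2 is the lowest cKO library.

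These 3 genes were the members that passed the low-count filter, and all 3 were called higher, beside 8.55% of the 18775 genes tested that were called higher and 10.3% called lower. Because the cluster was chosen on this contrast, nothing is read from that count. Without the muscle-rich cKO replicate 2 the log2 fold changes were 3.80 for Klk8, 4.56 for Klk9 and 4.30 for Klk10, each larger than with it. Every cKO library was above every WT library for 7 of the 10 members, beside 14.4% of the 34828 rows with at least 1 count. The choice of the cluster fixes this for Klk8, Klk9 and Klk10. The other 4 of those 7 were below the filter and rest on few counts, so nothing is read from them either.

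To compare levels between genes, counts were also divided by exonic length and scaled to TPM, which sums to the same total in every library. In cKO nerves the order of mean TPM was Klk8 at 48.2 ± 19.8, Klk10 at 32.6 ± 15.2 and Klk9 at 4.45 ± 2.42 (SD, n = 3). In WT nerves it was Klk8 at 4.36 ± 1.15, Klk10 at 2.14 ± 0.677 and Klk7 at 0.254 ± 0.203, with Klk9 next at 0.232 ± 0.111 (SD, n = 3). Klk8 and Klk10 differed by less than their spread in cKO, where Klk8 read 60.0, 25.3 and 59.3 TPM and Klk10 46.7, 16.5 and 34.7 TPM. In WT they did not overlap, with Klk8 at 3.61, 5.68 and 3.80 TPM and Klk10 at 2.61, 2.44 and 1.36 TPM. Klk9 and Klk7 could not be ordered in WT. The other 7 members averaged from 0 (Klk5) to 0.537 ± 0.359 TPM (Klk7) in cKO and from 0 (Klk11 and Klk12) to the 0.254 TPM of Klk7 in WT.

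Within a library, Klk8 was above Klk10 in all 6. The ratio of Klk10 to Klk8 TPM was 0.779, 0.652 and 0.585 in cKO and 0.722, 0.429 and 0.358 in WT, so the groups overlapped. The ratio of Klk9 to Klk8 TPM was 0.118, 0.0910 and 0.0672 in cKO and 0.0354, 0.0614 and 0.0580 in WT, and here they did not. The WT ratios of Klk9 rest on 2, 6 and 4 counts. Together the trio made up 97.4%, 97.2% and 97.5% of the summed TPM of the 10 members in cKO and 91.6%, 94.0% and 94.99% in WT.

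The remaining 7 members had few counts in any library and were not tested. Summed over them, cKO libraries had 61, 22 and 49 counts and WT libraries 11, 11 and 7. Each member is given below by its counts in every library. Ratios, where the counts allow one, compare the groups' summed counts, each relative to its summed TMM-scaled library sizes. Each ratio has its exact 95% Poisson interval. Such intervals cover counting error only, since sequenced copies of the same molecule are not independent. Klk12 (bases 43768897 to 43773585) and Klk11 (bases 43774604 to 43779263), which lie just before Klk10, had counts in cKO alone. Klk12 had 8, 4 and 2 counts in cKO and 0 in each WT library. Klk11, known as hippostasin in mouse brain, had 1, 4 and 10 counts in cKO and 0 in each WT library. Set against an assumed floor of 3 counts over the WT group, the cKO rate was 5.09-fold that floor for Klk12 and 5.45-fold for Klk11. These values leave out the counting error of the cKO counts, so they are not lower limits. Without cKO replicate 1 the value for Klk12 was 3.32-fold, and without cKO replicate 3 that for Klk11 was 2.87-fold. With any 1 WT library left out and the same floor, the values were 3.31-fold to 3.47-fold for Klk12 and 3.55-fold to 3.72-fold for Klk11.

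Klk6, the neurosin gene (bases 43824499 to 43832030), had 17, 7 and 4 counts in cKO and 1, 0 and 0 in WT. Its ratio of 30.5 has an interval from 5.05 to 1249, because WT held 1 count. Without cKO replicate 1 the log2 ratio was 4.19, against 4.93 with all libraries, and without WT replicate 2 or 3 it was 4.35 or 4.31. Without WT replicate 1 there is no ratio, since WT is then at 0. Klk13 (bases 43712567 to 43727534) had 19, 2 and 12 counts in cKO and 0, 2 and 5 in WT, a ratio of 5.14 (2.24 to 13.8). Its groups overlapped through cKO replicate 2, and its log2 ratio ran from 1.73 without cKO replicate 1 to 3.55 without WT replicate 3, against 2.36 with all libraries.

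The skin proteases of the cluster were near the limit of detection. Klk7 (bases 43811294 to 43816359) had 14, 3 and 18 counts in cKO and 9, 6 and 1 in WT, with a ratio of 2.39 (1.29 to 4.62), and its groups overlapped. Its log2 ratio ran from 0.73 without WT replicate 3 to 1.90 without WT replicate 1. Klk14 (bases 43690418 to 43695536) had 2, 2 and 3 counts in cKO and 1, 1 and 1 in WT, a ratio of 2.55 (0.581 to 15.3) that includes 1. Klk5 (bases 43841971 to 43851181) had 0 counts in each cKO library and 0, 2 and 0 in WT, too few for a ratio. Thus 9 of the 10 members had more counts for the library sizes in cKO, and Klk5 had fewer.

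**Figure D2:**
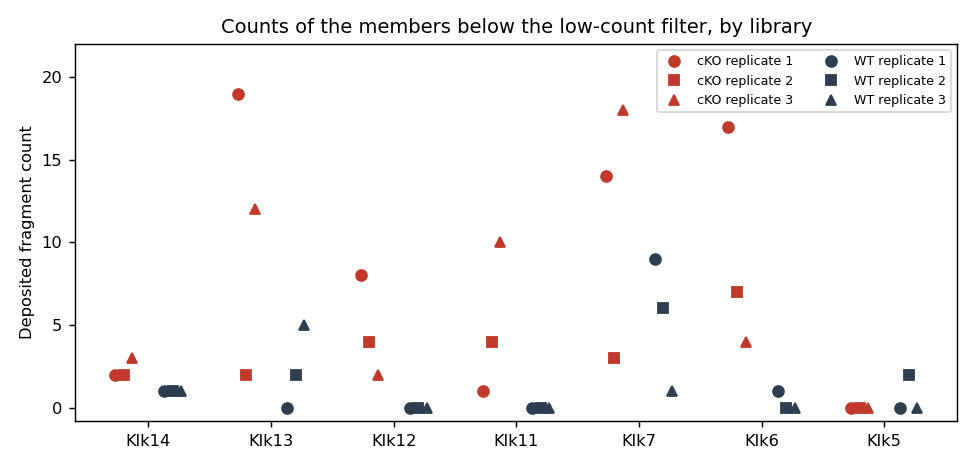
Deposited fragment counts of the 7 members below the low-count filter in each of 3 cKO (red, left) and 3 WT (dark, right) libraries, in order of position on the chromosome. No library exceeds 19 counts, and Klk12 and Klk11 are at 0 in all 3 WT libraries.

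The members differ in sequence. Over the 45 pairs of members, coding sequences had 57.2% to 66.4% identical bases when aligned (median 62.0%), with 61.2% between Klk10 and Klk8 and 60.0% between Klk9 and Klk8. No 50-base word of the transcripts of Klk5, Klk6, Klk7, Klk9, Klk10, Klk11, Klk12 or Klk13 was found in the transcripts of another gene. Of the words of Klk14, 21.0% were found in 106 other genes, so its few counts are uncertain. Of the words of Klk8, 21.7% were shared with the single gene 2310002F09Rik, described next.

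2310002F09Rik is an antisense gene that runs through the cluster on the opposite strand, from 43797958 back to 43695209, and it was named after its values were seen. It had 70, 24 and 87 counts in cKO libraries, against 1, 7 and 2 in WT libraries. This is 1.82 ± 0.853 CPM in cKO and 0.0955 ± 0.0928 CPM in WT (SD, n = 3 each), with a log2 fold change of 4.21 (95% interval 2.62 to 5.79, adjusted p = 0.00779). The call was lost without WT replicate 3 (adjusted p = 0.0507), and without WT replicate 2 the log2 fold change was 5.29. Its exons overlap those of Klk8 over 382 bases, from 43797577 to 43797958, which is 24.8% of the exonic bases of Klk8 and lies before the Klk8 coding start at 43798063. They also overlap 287 bases of Klk14, 22.6% of its exons, and 0 bases of the other 8 members. Counting did not use strand and did not assign a fragment to more than 1 gene. Fragments lying within the stretch shared with Klk8 therefore count for neither gene. TPM still divided by all exonic bases, so the TPM of Klk8 may read low, and the ratios of Klk10 and Klk9 to it high. Klk9 and Klk10 share no exonic base with 2310002F09Rik, but they lie within its introns. Unspliced antisense RNA there cannot be told apart from theirs. In the same way, sense RNA over exons of 2310002F09Rik outside the shared stretches would count for 2310002F09Rik. Its values therefore cannot tell which strand was transcribed.

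Most genes around the cluster showed no call. Inside the cluster and within 500 kb on either side, 80 genes lie in the table. This leaves out the 16 other kallikreins described below but includes kallikrein pseudogenes. Of the 80, 39 had 0 counts in every library and 16 were tested. Of these 16, 3 were higher and 0 lower by edgeR (1 lower at an unadjusted p under 0.05, and 0 lower by DESeq2). The antisense gene 2310002F09Rik, inside the cluster, is among the 3. The share called in either direction was 18.8%, beside 18.8% of all genes tested. As all the calls were higher, 18.8% is also the share called higher, beside 8.55% of all genes tested. With 16 genes tested, nothing is read from these shares. The median log2 fold change was 0.39, beside 0.04 over all genes tested. The gene nearest on the left, Ctu1, a tRNA thiolation enzyme 12120 bp away, had a log2 fold change of -0.02 (adjusted p = 0.936). Next to it, Siglece, an inhibitory receptor of myeloid cells, had 0.41 (adjusted p = 0.356), and the zinc finger gene Zfp719 had -0.13 (adjusted p = 0.649). On the right, beyond the other kallikreins, the nearest tested gene lies 378749 bp away. This gene, 1700028J19Rik, had 0.78 (adjusted p = 0.2496), or 1.42 without WT replicate 1 (adjusted p = 0.0573), and the next, 2410002F23Rik, had -0.22 (adjusted p = 0.118).

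The called neighbours besides the antisense gene were Clec11a and Siglecf. Clec11a, a secreted growth factor gene 451506 bp to the right, had 29.8, 21.4 and 30.0 CPM in cKO and 16.5, 16.9 and 17.5 CPM in WT. Its log2 fold change was 0.67 (adjusted p = 0.0226), and the call held only without cKO replicate 2, with adjusted p from 0.0548 to 0.102 when any other library was left out. Siglecf, a receptor of mouse eosinophils 330887 bp to the left, named after its values were seen, had 7.90, 4.16 and 7.94 CPM in cKO and 1.74, 1.87 and 1.40 CPM in WT. Its log2 fold change was 1.997 (95% interval 1.31 to 2.68, adjusted p = 0.00561), and the call held with any 1 library left out.

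**Figure D3:**
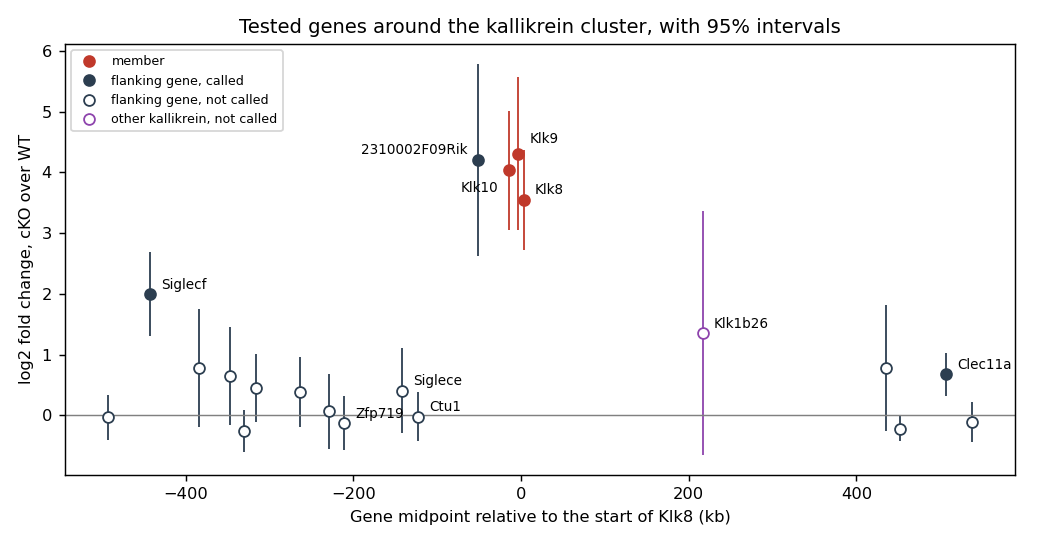
Log2 fold change, cKO over WT, with 95% intervals, for all tested genes within 500 kb of the cluster, plotted at the gene midpoint relative to the start of Klk8 in kb. Klk10, Klk9, Klk8 and the antisense gene 2310002F09Rik lie between 3.55 and 4.30, and of the flanking genes Siglecf at 1.997 is the next highest.

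The other tissue kallikreins of mouse, the glandular Klk1 group with Klk4 and Klk15, were close to silent. Of these 16 genes, 8 had 0 counts in every library and 1 was tested. That gene, Klk1b26, had 8, 58 and 32 counts in cKO and 25, 6 and 12 in WT, with overlapping groups and no call (log2 fold change 1.35, 95% interval -0.66 to 3.36, adjusted p = 0.292). Klk1, the tissue kallikrein that releases kinins, had 5, 1 and 6 counts in cKO and 3, 2 and 1 in WT. Klk4, which matures tooth enamel, had 5, 2 and 2 counts in cKO and 0 in each WT library. The Klk1 group holds near-identical copies, and reads that fit several can be lost to the mapping quality limit.

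Among 20 inhibitors that can act on kallikreins or related proteases, 11 were tested, of which 1 rose, 1 fell and 9 were not called. Their median log2 fold change was 0.46, beside 0.04 over all genes tested, and 18.2% were called, beside 18.8% of all. This list and those below were chosen with earlier results of these data known, so nothing is read from the shares. The inhibitor that fell was Spint1, a membrane-bound Kunitz inhibitor of matriptase and hepsin. It had 1.003, 0.610 and 1.31 CPM in cKO and 5.39, 4.38 and 5.53 CPM in WT, so the groups were far apart. Spint1 was 5.17-fold lower in cKO (log2 fold change -2.37, 95% interval -3.05 to -1.69, adjusted p = 0.00298), and the call held with any 1 library left out.

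Serpina3n, a secreted serpin of injured tissue, had 2.37, 1.44 and 2.51 CPM in cKO and 0.722, 1.15 and 0.930 CPM in WT. Its log2 fold change was 1.17 (adjusted p = 0.0372), but the call held only without cKO replicate 2, with adjusted p from 0.0819 to 0.138 when any other library was left out. The trypsin inhibitor gene Spink1 had a log2 fold change of 1.23 that was not called (adjusted p = 0.0636). It passed with DESeq2 (0.0255), with no filter on low counts (0.0316) and without cKO replicate 2 (0.001004). Serping1, the C1 inhibitor and the inhibitor with the highest mean TPM, averaged 645.9 ± 186.7 CPM in cKO and 413.1 ± 25.8 CPM in WT (SD, n = 3 each), also not called (log2 fold change 0.64, adjusted p = 0.0826). It passed without cKO replicate 2 (8.51e-06) and with DESeq2 (0.0211).

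The inhibitors next to Serping1 in mean TPM were not called under any alternative run. Serpine2, or protease nexin-1, a glial serpin, averaged 313.0 ± 71.3 CPM in cKO and 375.7 ± 26.4 CPM in WT (SD, n = 3 each), with a log2 fold change of -0.26 (adjusted p = 0.318). Serpinb6a, an intracellular serpin, had a log2 fold change of 0.10 (adjusted p = 0.643). Spink5, whose product LEKTI restrains KLK5 and KLK7 in skin, had 4, 3 and 0 counts in cKO and 1, 0 and 0 in WT and was not tested.

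Of 22 receptors and substrates of kallikreins, 17 were tested: 4 rose, 1 fell and 12 were not called. The median log2 fold change was 0.40, beside 0.04 over all genes tested, and 29.4% were called, beside 18.8% of all. As the list was chosen with earlier results known, the share is a description only. Nrg1, the axonal growth factor neuregulin-1 and a substrate of KLK8 in mouse brain, had 15.6, 5.56 and 7.63 CPM in cKO and 0.692, 0.692 and 0.629 CPM in WT. The groups did not overlap, and cKO replicate 2 was again the lowest in cKO. Nrg1 was 14.3-fold higher in cKO (log2 fold change 3.83, 95% interval 2.80 to 4.86, adjusted p = 0.00256).

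Mbp encodes myelin basic protein, which KLK6 can cut in rodents. It had 3458, 1593 and 2984 CPM in cKO and 13253, 12538 and 13228 CPM in WT (log2 fold change -2.28, 95% interval -2.96 to -1.60, adjusted p = 0.00333). Every cKO library was below every WT library. Plau, the urokinase gene, had 40.2, 43.2 and 28.3 CPM in cKO and 14.6, 17.5 and 16.5 CPM in WT (log2 fold change 1.201, 95% interval 0.79 to 1.61, adjusted p = 0.00545). Nrg1, Mbp and Plau kept their calls with any 1 library left out.

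Among the protease-activated receptors, F2r (PAR1) had 51.8, 54.3 and 53.0 CPM in cKO and 37.0, 35.4 and 43.7 CPM in WT. The groups were apart by a small margin (log2 fold change 0.45, adjusted p = 0.0237), and the call was lost without cKO replicate 3, WT replicate 1 or WT replicate 2 (adjusted p from 0.0699 to 0.110). F2rl3 (PAR4), named after its values were seen, had 1.28, 1.69 and 0.914 CPM in cKO and 0.511, 0.461 and 0.711 CPM in WT. Its log2 fold change of 1.19 was called (adjusted p = 0.0437), but not without cKO replicate 1 or any WT library (0.0814 to 0.156). The next most abundant substrates after Mbp by mean TPM were not called: Fn1, fibronectin, had a log2 fold change of 0.41 (adjusted p = 0.0503) and Col4a1, a basement membrane collagen, -0.09 (adjusted p = 0.607). Fn1 passed with DESeq2 (0.00353) and without cKO replicate 2 (0.000786).

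Of 20 other serine proteases, most secreted and some, such as Tmprss5, St14 and Hpn, anchored in the membrane, 18 were tested. Of these, 8 rose, 3 fell and 7 were not called, so that 61.1% were called, beside 18.8% of all genes tested. Their median log2 fold change was 0.68, beside 0.04 over all. Because the list was chosen with earlier results of these data known, nothing is read from that share. Prss56, a protease gene that marks boundary cap cells in mouse embryos, had 62, 38 and 37 counts in cKO and 0, 2 and 1 in WT. On 3 WT counts, the ratio of summed counts was 49.8 with a counting interval from 16.7 to 244.6. Its edgeR adjusted p was 0.00191 and the call held with any 1 library left out, while its fitted log2 fold change of 5.47 reached 6.30 without WT replicate 2.

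Htra3, a secreted protease of the HtrA family, had 137.5, 128.9 and 155.1 CPM in cKO and 73.3, 79.2 and 85.5 CPM in WT (log2 fold change 0.82, adjusted p = 0.00340). Prss12, neurotrypsin, which cuts agrin at synapses, had 38.2, 22.3 and 41.4 CPM in cKO and 109.8, 113.8 and 119.1 CPM in WT (log2 fold change -1.75, adjusted p = 0.00436). Neither gene had overlapping groups, and both calls held with any 1 library left out. Prss35 (0.95, adjusted p = 0.0242) and the complement protease gene C1s1 (0.65, adjusted p = 0.0391) were called higher, but the calls held only without cKO replicate 2. With any other library left out the adjusted p was 0.0620 to 0.104 for Prss35 and 0.0697 to 0.148 for C1s1. Plau, described above, is in this list too.

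**Figure D4:**
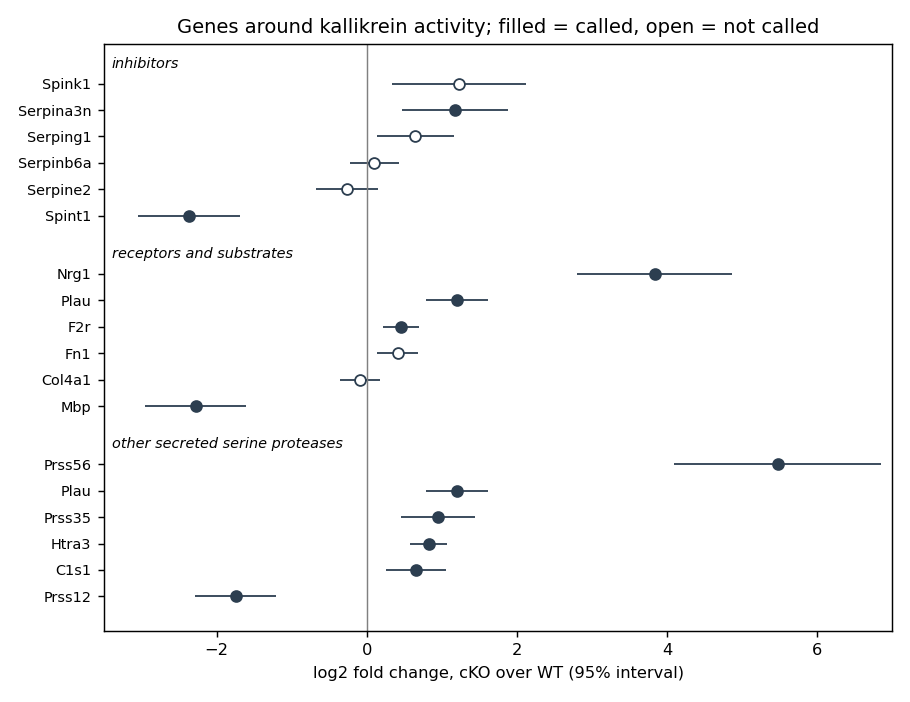
Log2 fold change, cKO over WT, with 95% intervals (n = 3 each), for the named inhibitors, receptors and substrates, and other secreted or membrane-anchored serine proteases, filled where called and open where not called. Values run from -2.37 for Spint1 to 5.47 for Prss56, and Nrg1 at 3.83 is the highest of the receptors and substrates.

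Because several kallikreins are abundant in skin, 17 epidermal markers were examined beside them. Of these, 12 were tested, 3 rose and 1 fell, so that 33.3% were called, beside 18.8% of all genes tested. Their median log2 fold change was 0.96, beside 0.04 over all. This list too was chosen with earlier results known, and its share is a description only. Krt15 (1.71, adjusted p = 0.00813), Krt1 (1.83, adjusted p = 0.0469) and Krtdap (0.98, adjusted p = 0.0161) were higher in cKO. Cdh1, E-cadherin, which Schwann cells also make, was lower (-1.10, adjusted p = 0.0235). These calls were not stable: Krt15 was lost without WT replicate 2 (0.0529), Krt1 without cKO replicate 3 or any WT library (0.0893 to 0.167), Krtdap without WT replicate 1 or 2 (0.0764 to 0.0837), and Cdh1 without any WT library (0.0745 to 0.0889). These 4 were named after their values were seen.

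The summed level of all 17 was 92.3, 81.0 and 93.7 CPM in cKO and 116.5, 109.9 and 122.0 CPM in WT, with every cKO library below every WT library. Without Cdh1, which makes up most of the WT sum, it was 47.2, 56.2 and 48.1 CPM in cKO and 34.5, 32.6 and 33.5 CPM in WT, and the order of the groups was the opposite. None of the defining markers Krt5, Krt14, Krt1, Krt10, Lor and Trp63 was at 0. The basal keratin Krt5 had 0.638, 2.30 and 2.71 CPM in cKO and 1.05, 0.692 and 0.410 CPM in WT, with overlapping groups. The groups of Krt14 and Krt10 overlapped too. For Krt1, Trp63 and Lor every cKO library was above every WT library in CPM. Trp63 had 64, 393 and 70 counts in cKO and 33, 40 and 24 in WT. It was not called (log2 fold change 2.68, adjusted p = 0.109). Lor, which was not tested, had 0.456, 0.287 and 0.343 CPM in cKO and 0.150, 0.202 and 0.219 CPM in WT. The part of epidermal RNA in the kallikrein values was not tested.

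The genes whose profile over the 6 libraries was most like that of Klk8 were found by the root mean square difference of log2 CPM, each centred on its mean. The 5 closest outside the cluster were Btbd16 (0.19), Gm36001 (0.23), Itprid1 (0.23), Gm48453 (0.24) and Gm2861 (0.26), on chromosomes 7, 16, 6, 14 and 5. Btbd16, on the same chromosome at bases 130774069 to 130825899, had 52.3, 28.4 and 51.5 CPM in cKO and 3.85, 4.64 and 4.43 CPM in WT. Like Klk8 and several of the marker sums above, it was lowest of the cKO libraries in cKO replicate 2. Klk9 ranked 7 among all tested genes (0.28), the antisense gene 2310002F09Rik ranked 11 (0.31) and Klk10 ranked 20 (0.38). The prior count of 2 flattens the profiles of genes with few counts, such as Gm2861 with 1, 2 and 2 counts in WT. The ranks of Klk9 and 2310002F09Rik, with few WT counts too, share this limit. All libraries are shared by these profiles, and the difference between the genotypes makes up most of each.

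**Figure D5:**
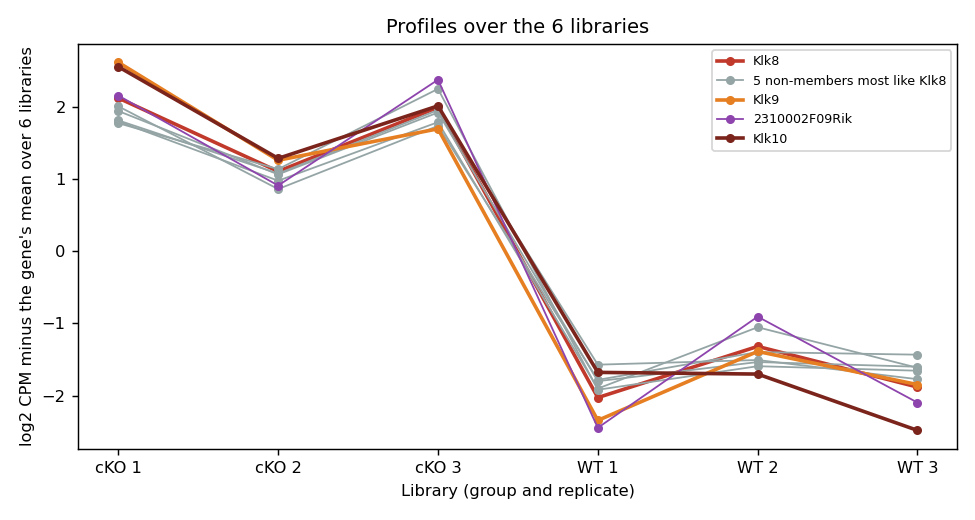
Log2 CPM of Klk8, Klk9, Klk10, the antisense gene 2310002F09Rik and the 5 genes outside the cluster most like Klk8, each minus its own mean over 6 libraries, for cKO replicates 1 to 3 and WT replicates 1 to 3. All profiles lie above 0 in cKO and below 0 in WT, with cKO replicate 2 the lowest of the cKO libraries.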

How the data were processed

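Total RNA of sciatic nerves was sequenced in 3 cKO and 3 WT libraries, grouped by genotype as the labels give it, with about 150 ng of RNA per library. The authors deposited 1 table of fragment counts per gene, not normalized. Per the file headers, featureCounts 1.6.1 counted exons of Ensembl release 95 (GRCm38) with both ends mapped, a minimum mapping quality of 20 and no strand, and without the option that assigns a fragment to more than 1 gene. Subread 2.0 and DESeq2 1.3 are named in the submitters' processing notes, and no source used here gives the aligner settings. Exonic lengths in bases come from the same deposited table.

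Symbols came from GENCODE M21, which named 54723 of 54838 identifiers (115 unmatched), with 0 rows lacking an identifier. Genes were filtered with filterByExpr (minimum count 10), scaled by TMM and tested with edgeR 4.0.16 in R 4.3.3 (robust quasi-likelihood test, 2-sided, 4 residual degrees of freedom). Adjusted p-values are Benjamini-Hochberg over the 18775 genes tested, and genes below 0.05 are called. CPM and TPM were computed here from the deposited counts, with a prior count of 2 for log2 CPM in the profile comparison. The test was checked on data simulated from the WT means, with no outlying library like cKO replicate 2. That check does not show its error rate in the real libraries. Every pair of libraries in a group differed beyond counting noise (chi-square per degree of freedom 28.8 to 311.6 in cKO and 8.26 to 14.9 in WT), so none was treated as a repeat deposit. This does not show that they came from separate animals. Named from the lists were up to 4 genes with the smallest p and up to 2 with the highest mean TPM of each, the 3 nearest tested neighbours on each side, and the 5 profiles most like Klk8. The members and lists were chosen with earlier results of these data known. Alternatives were DESeq2 1.42.0, other size factors, no filter, plain library sizes, a replicate block and leaving out each library.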

Additional observations from a re-analysis of the deposited data

How the results depend on the processing

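The higher levels of Klk8, Klk9 and Klk10 in cKO kept their direction under every alternative run. This is no support, since they were chosen for that difference. With every cKO library above every WT library, leaving out a library could not reverse it. Leaving out a library gave log2 fold changes of 3.36 to 3.80 for Klk8, 3.81 to 4.70 for Klk9 and 3.68 to 4.30 for Klk10. Low counts limit the other 7 members: a difference was not detectable for Klk14, and Klk5 gave no ratio. No called result reversed. Leaving out a library changed the sign of 3 log2 fold changes that were not called, with ranges of -0.035 to 0.20 for Serpinb6a (below 0 without cKO replicate 1), -0.32 to 0.012 for Zfp719 (above 0 without cKO replicate 2) and -0.14 to 0.10 for Ctu1 (above 0 without cKO replicate 2, at 0.068, and WT replicate 3). Counts of calls moved much more. Leaving out a library gave 449 to 3425 genes higher (1605 with all) and 790 to 3398 lower (1929 with all), the highest counts being without cKO replicate 2. For the lists, leaving out a library gave 0 to 6 inhibitors higher and 1 to 2 lower (1 and 1 with all), 2 to 9 receptors and substrates higher and 1 to 4 lower (4 and 1), and 3 to 11 other proteases higher and 1 to 3 lower (8 and 3). It gave 1 to 6 flanking genes higher and 0 lower (3 and 0), and 0 to 5 epidermal markers higher and 0 to 1 lower (3 and 1). DESeq2 called 3 inhibitors higher and 2 lower, and 3 receptors and substrates lower. With no filter on low counts 2 inhibitors were higher. The cause of these shifts was not tested.

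The labels do not say whether the replicate numbers pair the libraries. Same-numbered libraries had correlations of their deviations of -0.22, -0.23 and -0.08 across genes, and differently numbered ones -0.12 to 0.22. With 3 libraries per group, each centred on its group mean, such values cannot show or exclude a pairing. With the replicate number as a block, 744 genes were higher and 1108 lower, with 0 inhibitors, 2 receptors and substrates and 5 other proteases higher. The block left log2 fold changes of 3.51 for Klk8, 4.19 for Klk9 and 3.98 for Klk10.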
